A study of Homo sapiens with 6 samples.

Results

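The genes described here are 10 genes of the ATF4 and endoplasmic reticulum (ER) stress response, ATF4, DDIT3, ATF3, TRIB3, CHAC1, DDIT4, SESN2, ASNS, PSAT1 and HSPA5, out of 22718 genes that were tested. They were chosen by name, and every non-control array probe that carried one of these names was kept, which gave 15 probes. The study examined whether deferasirox (DFX), an oral iron chelator, acts against the growth of pancreatic cancer in cell lines and in xenografts. Its arrays, used here, compared gene expression between xenograft tumors of DFX-treated and control mice. The tumors, formed from the human pancreatic adenocarcinoma line BxPC-3, were grown under the skin of the back of female BALB/c (nu/nu) nude mice, and the experiments began when the mice were 8 to 10 weeks of age. The 3 tumors of the DFX group came from mice that received 200 mg/kg DFX in saline by gavage, 3 times per week for 21 days, starting at a tumor volume of 150 mm3. The 3 tumors of the control group came from mice that received the vehicle on its own. Both groups derive from 1 cell line, and nude mice lack mature T cells but keep their other cells, so the RNA could hold mouse transcripts of the host as well.

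Cells that are short of amino acids or heme, or whose ER holds unfolded proteins, phosphorylate the translation factor eIF2α through the kinases GCN2, HRI, PKR and PERK. This slows protein synthesis in general but favors translation of the ATF4 messenger RNA, and the ATF4 protein then binds CEBP-ATF response elements (CARE) to switch on genes of amino acid supply, redox balance and cell death. The ER branch also raises chaperones such as BiP, encoded by HSPA5, through ER stress elements (ERSE). Since ATF4 is controlled largely by translation, its messenger RNA level does not measure the amount of the protein.

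RNA of each tumor was measured on 1 one-color human array of 60-mer probes, and levels are given as quantile-normalized log2 intensities, so that a difference of 1 is a doubling. Between 50.3% and 56.5% of probes were well above background on each array, and the log2 intensities correlated at 0.983 to 0.990 within groups and 0.980 to 0.988 between groups. All arrays lay on 1 slide with the controls in row 1 and the DFX group in row 2, so that slide row and treatment cannot be told apart. Epithelial tumor cell markers were well above background on all 6 arrays for 8 of 8 genes, with a summed linear level of 646312 to 659887 (controls) and 671441 to 683071 (DFX). Fibroblast markers were well above background on all arrays for 6 of 8 genes (12317 to 20007 against 11001 to 13691, PDGFRB on none), leukocyte markers for 4 of 6 (1941 to 2278 against 2019 to 2403, CSF1R on none) and endothelial markers for 3 of 5 (496 to 950 against 583 to 620, KDR on none). Being linear, these sums weigh the brightest gene of each list most, which was KRT19, COL1A1, CD14 and VWF in this order. KRT19 overlapped between the groups, with a log2 fold change of 0.02. The part of these marker lists in the values below was not tested. In such whole-tumor RNA, fewer cells of a type and less RNA per cell cannot be told apart. The array is for human genes, while the host cells are from the mouse. Whether the fibroblast, leukocyte and endothelial values came from the human tumor cells or from mouse RNA was not tested.

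The probes of TRIB3, the one of the 10 genes with the largest difference, and of ATF3, whose probes differed in sign, are shown first. TRIB3 had 1 probe, at chr20:378107-378166 on the plus strand of hg19, while ATF3 had 4 probes spread over its transcripts on chromosome 1, at chr1:212793856-212793915, chr1:212788502-212788561, chr1:212792519-212792578 and chr1:212792837-212792896 of hg19. Of each 60-base probe, the first 30 bases are given below, from the TRIB3 probe and from the ATF3 probes in the order of these positions.
TRIB3: acacttggggtccacaatcccaggtccata
ATF3 probe 1: gatgtcaatagcattgtttttgtcatgtag
ATF3 probe 2: tttgccatccagaacaagcacctctgccac
ATF3 probe 3: aagaagagggtctgcattttcctaaaccca
ATF3 probe 4: tccagaagatgagagaaacctctttatcca

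The promoters of the 10 genes were searched because ATF4 and the ER stress factors act through short DNA elements. Promoter windows from RefSeq on GRCh38.p14, each 250 bases before to 50 bases after a start site, were given for all 10 genes, 16 windows in all. The CARE letters TGATGNAA on either strand were found in 3 of the 16 windows, those of 3 genes, against 3.62% of all 35116 windows, and the ERSE, a CCAAT and a CCACG 9 bases apart, in 1 of the 16, against 0.0769% of all windows. Capitals mark the match, and each line reads 5′ to 3′ on the strand of the gene.
ATF3 (chr1:212565200-212565239, plus strand): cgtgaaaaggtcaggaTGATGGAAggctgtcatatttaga
ASNS (chr7:97872453-97872492, minus strand): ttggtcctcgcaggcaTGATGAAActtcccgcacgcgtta
CHAC1 (chr15:40953246-40953285, plus strand): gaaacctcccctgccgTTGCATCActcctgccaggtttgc
HSPA5 (chr9:125241375-125241425, minus strand): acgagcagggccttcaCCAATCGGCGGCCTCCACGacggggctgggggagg

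The matches began 191 bases before the start site of their window in ATF3, 68 in ASNS, 209 in CHAC1 and 66 in HSPA5. That of CHAC1 lay on the strand opposite to the gene. ATF3 and ASNS had 2 windows each, of which 1 held the match. The 3 windows of TRIB3 held neither set of letters. A match of letters describes the window and not binding in these tumors.

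Of the 10 genes, TRIB3 differed between the groups before adjustment and the other 9 did not pass the test. TRIB3 was 1.91-fold higher in the DFX tumors (95% confidence interval 1.45 to 2.51, n = 3 and 3 tumors, limma). Counting a gene when any of its probes had an unadjusted p under 0.05, 1 member was higher and 0 were lower, where 4.44% of all tested genes were higher and 6.41% lower. With Benjamini-Hochberg adjusted p-values, 0 members and 0% of genes passed 0.05 in limma. Over the 10 genes, the log2 fold change had a median of 0.054, with 6 above and 4 below 0, against a median of -0.01 over all genes and a median size of 0.15.

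**Figure D1:**
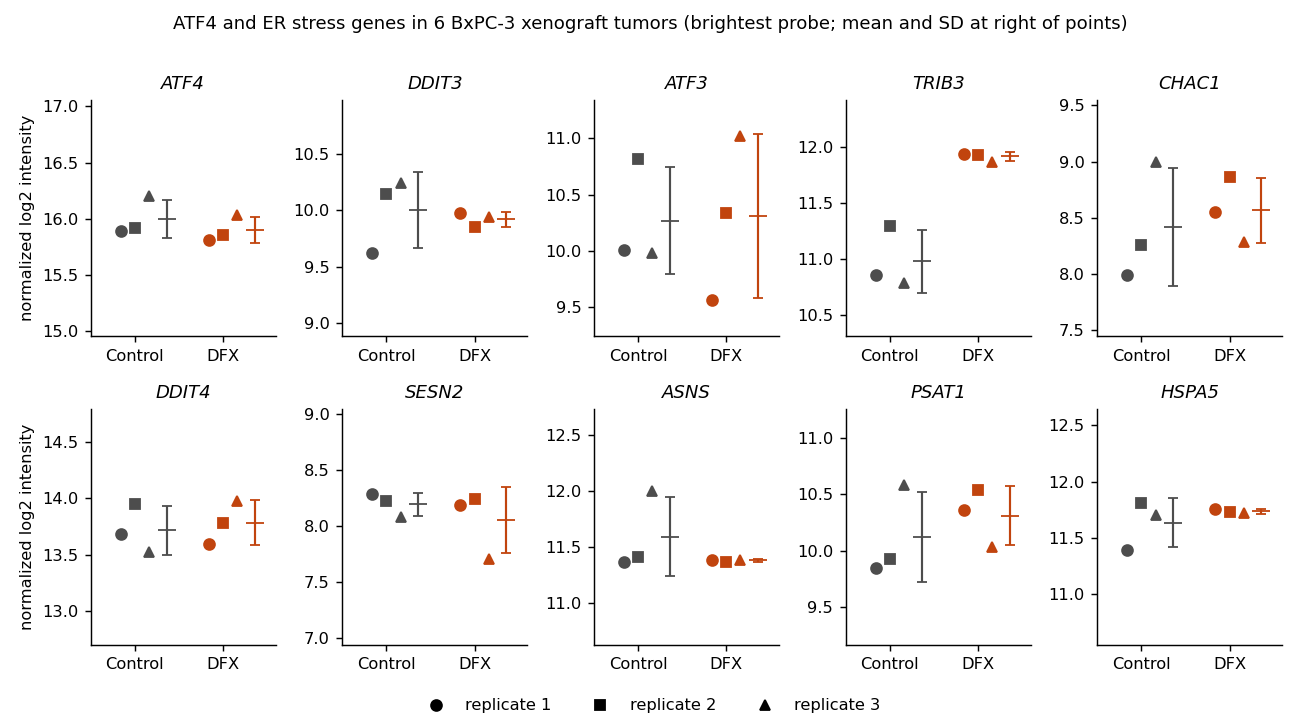
Normalized log2 intensity (vertical axis, every panel spanning the same range of log2 units) of the brightest probe of each of the 10 genes in the 3 control and 3 DFX tumors, with the mean and SD of each group to the right of its points. TRIB3 lies at 11.87 to 11.94 after DFX and at 10.79 to 11.30 after vehicle, and it is the panel in which the groups do not overlap.

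Among the eIF2α kinases, which stand at the head of the pathway, none passed the test. EIF2AK1 (HRI, which senses heme shortage) had a log2 fold change, DFX minus control, of -0.07 ± 0.13 (SE, limma unadjusted p = 0.607, adjusted p = 0.892). EIF2AK2 (PKR, which senses double-stranded RNA) was at 0.13 ± 0.17 (limma unadjusted p = 0.481, adjusted p = 0.847), and ran from 0.015 without control tumor 1 to 0.29 without control tumor 3. EIF2AK3 (PERK, the ER kinase) was at 0.04 ± 0.13 (limma unadjusted p = 0.770, adjusted p = 0.945), and EIF2AK4 (GCN2, which senses uncharged tRNA) was at -0.12 ± 0.11 (limma unadjusted p = 0.304, adjusted p = 0.769). Their activity depends on phosphorylation, which arrays do not measure.

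ATF4, the transcription factor at the center of the response, had log2 intensities of 15.89, 15.92 and 16.20 in control tumors 1 to 3 and 15.81, 15.86 and 16.03 in DFX tumors 1 to 3. The groups overlapped, with DFX tumor 3 above the lower pair of control tumors. The log2 fold change was -0.10 ± 0.13 (SE), with a 95% confidence interval of -0.42 to 0.22 (limma unadjusted p = 0.473, adjusted p = 0.845). Without control tumor 3 it was -0.0036.

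DDIT3, which encodes CHOP, a transcription factor that promotes cell death under prolonged ER stress, had values of 9.62, 10.15 and 10.24 in the control tumors, against 9.98, 9.85 and 9.94 in the DFX tumors. All DFX values lay inside the control range. In limma, the log2 fold change was -0.08 ± 0.18 (SE; 95% confidence interval -0.53 to 0.37, limma unadjusted p = 0.678, adjusted p = 0.917). Its 60-base probe is placed at chr12:57911200-57911526 of hg19, on the minus strand, a stretch longer than the probe.

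ATF3, a stress-induced transcription factor and target of ATF4, varied widely from tumor to tumor (SD 0.47 among control and 0.73 among DFX tumors for its brightest probe). Its brightest probe, probe 1 above, read 10.01, 10.82 and 9.98 in the control tumors, against 9.56, 10.34 and 11.02 in the DFX tumors. The DFX group held both the lowest and the highest value of the 6 tumors, and the log2 fold change was 0.04 ± 0.42 (SE; 95% confidence interval -0.99 to 1.06, limma unadjusted p = 0.930). Probe 2 read 8.60, 8.11 and 7.04 against 7.55, 7.58 and 7.82, with a log2 fold change of -0.27 (limma unadjusted p = 0.517).

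ATF3 probe 3 read 7.19, 7.47 and 7.24 in the control tumors, against 7.66, 7.31 and 7.56 in the DFX tumors, with a log2 fold change of 0.21 (limma unadjusted p = 0.187). Probe 4 read 5.45, 5.85 and 5.57 against 4.88, 5.20 and 5.71, with a log2 fold change of -0.36 (limma unadjusted p = 0.183). The probes thus differed in sign, and none passed the test. Probe 2 passed an unadjusted p of 0.05, lower in the DFX tumors, when control tumor 3 was left out, and probe 4 likewise when DFX tumor 3 was left out.

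TRIB3, a pseudokinase that ATF4 and CHOP induce and that in turn restrains them, had log2 intensities of 10.86, 11.30 and 10.79 in control tumors 1 to 3 and of 11.94, 11.93 and 11.87 in DFX tumors 1 to 3. Every DFX tumor was above every control tumor, by at least 0.57, and the DFX tumors differed little among themselves (SD 0.039 against 0.28 in the control tumors). The log2 fold change was 0.93 ± 0.16 (SE; 95% confidence interval 0.54 to 1.33), with an unadjusted p of 0.00111 and an adjusted p of 0.504 in limma. A two-sided exact permutation test gave p = 0.1, the smallest that 3 against 3 tumors allow.

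Groups without overlap were found in 7.03% of all genes in the upward direction and in 8.41% in the downward direction, and 412 of the 22718 genes were higher by more than TRIB3. By unadjusted p, 49 genes ranked ahead of it. Among the genes whose brightest probe was called, which were 3.68% of all genes upward and 4.3% downward, 639 were higher and well above background on all 6 arrays, and 71 of these were higher by more. Within the slide columns that held 1 tumor of each group, TRIB3 differed by 1.07 in column 2 and by 1.09 in column 4. Control tumor 2, the highest control tumor for TRIB3, was in neither column, and the tumors of each pair lay in different slide rows.

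The log2 level of TRIB3 minus that of each of the other 9 genes was also taken tumor by tumor, a comparison chosen after the separation of TRIB3 was seen and given as a description only. This difference was higher in every DFX tumor than in every control tumor for 9 of the 9 genes. All 9 differences hold the same TRIB3 values, which were themselves without overlap, so they are not separate observations. The group means of the difference moved by 0.74 for PSAT1, the least, up to 1.14 for ASNS. The gap between the lowest DFX and the highest control tumor was narrow for PSAT1 (0.02), CHAC1 (0.02) and ATF3 (0.00, with the DFX tumors still above before rounding), and ranged from 0.46 to 0.69 for the remaining genes.

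**Figure D2:**
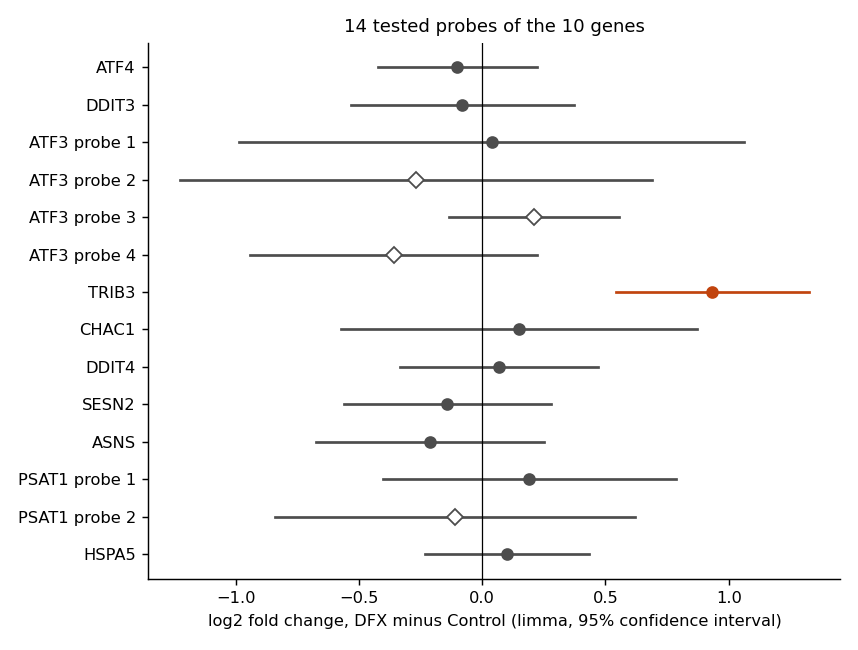
Log2 fold change (horizontal axis, DFX minus control, limma) with its 95% confidence interval for the 14 tested probes of the 10 genes; filled circles are the brightest probe of a gene, open diamonds its dimmer probes, numbered by brightness, and orange marks an unadjusted p under 0.05. The interval of TRIB3, 0.54 to 1.33, lies above 0, and the intervals of the other 13 probes include 0.

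CHAC1, an enzyme that degrades glutathione, had 1 probe that could be tested, at chr15:41248631-41248690 of hg19. It read 7.99, 8.26 and 9.0 in the control tumors, against 8.55, 8.86 and 8.28 in the DFX tumors. Control tumor 3 was the highest of the 6 tumors and the other control tumors the lowest, so that the DFX tumors lay between them. This gave a log2 fold change of 0.15 ± 0.30 (SE; 95% confidence interval -0.57 to 0.87, limma unadjusted p = 0.634). It was 0.44 without control tumor 3 and 0.29 without DFX tumor 3, but -0.064 without control tumor 1, 0.068 without control tumor 2 and -0.00066 without DFX tumor 2. The other CHAC1 probe was well above background on 1 of 6 arrays, that of control tumor 3, and was not tested.

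PSAT1, which makes phosphoserine on the way to serine, read 9.85, 9.93 and 10.58 in the control tumors, against 10.36, 10.54 and 10.03 in the DFX tumors with its brighter probe. The tumors ranked in the same order as for CHAC1, with control tumor 3 first and the other control tumors last. The log2 fold change was 0.19 ± 0.24 (SE; 95% confidence interval -0.40 to 0.78, limma unadjusted p = 0.460). It was 0.42 without control tumor 3 and 0.33 without DFX tumor 3, but 0.056 without control tumor 1, 0.097 without control tumor 2 and 0.076 without DFX tumor 2. Its dimmer probe read 5.99, 5.77 and 6.77 against 6.42, 5.87 and 5.91, with a log2 fold change of -0.11 (limma unadjusted p = 0.728).

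ASNS, the enzyme that makes asparagine, holds the CARE letters shown above in 1 of its 2 promoter windows. It read 11.37, 11.41 and 12 in the control tumors, against 11.39, 11.37 and 11.39 in the DFX tumors. Control tumor 3 stood 1.53-fold above the mean of the other control tumors, and the remaining 5 tumors lay within 11.37 to 11.41. On average the groups differed by a log2 fold change of -0.21 ± 0.19 (SE; 95% confidence interval -0.67 to 0.25, limma unadjusted p = 0.305). It was -0.01 without control tumor 3 and -0.32 without control tumor 1.

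CHAC1 and PSAT1 differed in opposite directions in the slide columns that held both groups, while ASNS was near 0 in one and lower in the other. In column 2, which held control tumor 1 and DFX tumor 2, the log2 difference was 0.87 for CHAC1, 0.69 for PSAT1 and -0.01 for ASNS. In column 4, which held control tumor 3 and DFX tumor 3, it was -0.72, -0.55 and -0.61. Control tumor 3 was 1.84-fold above the mean of the other control tumors for CHAC1 and 1.61-fold for PSAT1.

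DDIT4, an inhibitor of the growth kinase complex mTORC1 that hypoxia also induces, read 13.68, 13.95 and 13.52 in the control tumors, against 13.59, 13.78 and 13.98 in the DFX tumors. Each value is a mean over 10 spots whose SD within an array was 0.023 to 0.038, well under the spread between tumors of 0.22 and 0.20 (SD). The groups overlapped over nearly their whole range, and the log2 fold change was 0.07 ± 0.16 (SE; 95% confidence interval -0.33 to 0.47, limma unadjusted p = 0.686). DFX tumor 3, control tumor 2 and DFX tumor 2 were the highest in this order for DDIT4 and for ATF3.

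The median of a list of other hypoxia genes, of which CA9, ADM, EGLN3, NDRG1 and ANKRD37 were tested, was highest in the same tumors. Relative to the control mean of each gene, this median was 0.50 in DFX tumor 3, 0.39 in control tumor 2 and 0.11 in DFX tumor 2. In control tumors 1 and 3 and DFX tumor 1 it was -0.03, -0.23 and -0.14. Taken singly, ADM and ANKRD37 were highest in these tumors in this order, and CA9, EGLN3 and NDRG1 were not. Of the 5 genes, 0 passed an unadjusted p of 0.05 in limma, and their median log2 fold change was 0.19.

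SESN2, a stress-induced inhibitor of mTORC1, read 8.28, 8.22 and 8.08 in the control tumors, against 8.19, 8.24 and 7.71 in the DFX tumors. DFX tumor 3 was the lowest, and the other DFX tumors lay within the control range. The log2 fold change was -0.14 ± 0.17 (SE; 95% confidence interval -0.56 to 0.28, limma unadjusted p = 0.442).

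HSPA5, the chaperone BiP and the main readout of the ER branch, read 11.39, 11.81 and 11.70 in the control tumors, against 11.76, 11.73 and 11.72 in the DFX tumors. The DFX tumors were nearly equal and lay inside the control range. DFX minus control, the log2 fold change was 0.10 ± 0.14 (SE; 95% confidence interval -0.23 to 0.43, limma unadjusted p = 0.489).

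The SD between tumors was smaller in the DFX group than in the control group for 8 of the 10 genes, with ATF3 and SESN2 as the exceptions, where the same held for 54.6% of all genes. For the 10 genes the median SD was 0.31 among controls and 0.16 among DFX tumors, against 0.19 and 0.17 over all genes. Control tumor 3 was the highest of the 6 tumors for 5 of the 10 genes (ATF4, DDIT3, CHAC1, PSAT1 and ASNS), and over all genes for 25.0%. No test was made of either count.

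**Figure D3:**
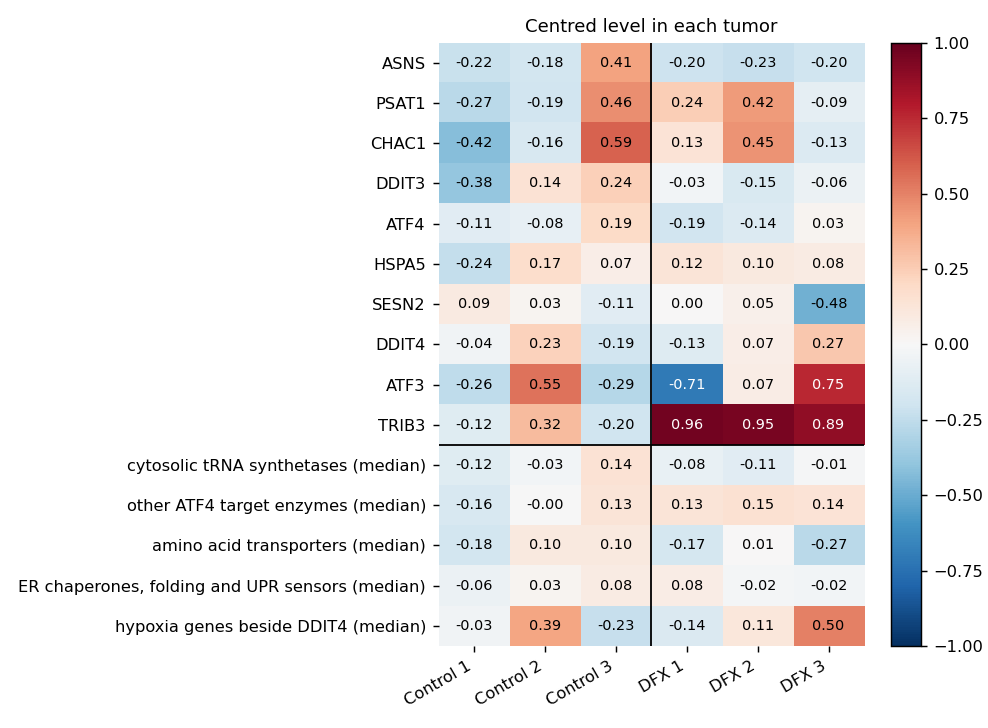
Log2 intensity minus the mean of the control tumors (color and printed value) in each of the 6 tumors, for the 10 genes above the horizontal line and for the medians of 5 gene lists below it. TRIB3 is at 0.89 to 0.96 in the DFX tumors, ASNS, PSAT1 and CHAC1 are highest in control tumor 3, and the hypoxia median is highest in DFX tumor 3, as ATF3 and DDIT4 are.

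The wider pathway was read from 6 lists of 91 genes, of which 89 could be tested. At an unadjusted p under 0.05 for the brightest probe, 2 were higher (2.25%) and 2 lower (2.25%) in the DFX tumors, against 3.68% and 4.3% of all genes, and 0 passed after adjustment in limma. Their log2 fold changes had a median of 0.01.

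Of 14 genes for the kinases, the exchange factor eIF2B and the feedback that restores translation, 0 were higher and 1 lower, with a median of -0.0027. The gene was EIF2B4, a subunit of eIF2B, the factor that phosphorylated eIF2α blocks. It read 9.30, 9.45 and 9.57 in the control tumors, against 9.04, 9.03 and 8.92 in the DFX tumors, without overlap (log2 fold change -0.44 ± 0.12 SE, limma unadjusted p = 0.00860, adjusted p = 0.514).

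Of 10 further ATF4 target enzymes, 1 was higher and 0 lower, with the highest median of the 6 lists, 0.17. PSPH, which completes serine synthesis after PSAT1, read 13.28, 13.72 and 13.34 in the control tumors, against 13.72, 13.87 and 13.94 in the DFX tumors, and the groups met at 13.72 (0.40 ± 0.15 SE, limma unadjusted p = 0.0417, adjusted p = 0.581). For 3 of the 10, SHMT2, CTH and GPT2, which act in one-carbon, cysteine and alanine metabolism, the groups did not overlap upward, with log2 fold changes of 0.19, 0.30 and 0.18, and none of these passed the test. Over the 89 genes of all 6 lists, groups did not overlap in 9 upward and 6 downward, beside 7.03% and 8.41% of all genes. SHMT2, CTH and GPT2 were picked out after their values were seen. PSPH missed the threshold under 11 of 21 alternative settings.

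Of 9 amino acid transporters, 8 were tested, and 0 were higher and 1 lower, with a median of -0.13. SLC1A5, which carries glutamine, read 11.18, 11.31 and 11.19 in the control tumors, against 11.04, 10.92 and 10.86 in the DFX tumors, without overlap (-0.28 ± 0.11 SE, limma unadjusted p = 0.0361, adjusted p = 0.578). SLC1A5 missed it under 6 of the 21. The 13 genes of the cytosolic tRNA synthetase list, which includes the tRNA exporter XPOT, had none higher or lower and a median of -0.09. Control tumor 3 was the highest tumor for 9 of the 13, against 25.0% of all genes. The same held for 6 of 14 kinase and eIF2B genes, 4 of 10 target enzymes and 2 of 8 transporters. It also held for 2 of 13 other stress factors and 11 of 31 ER genes.

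Of 14 other stress transcription factors and effectors, 13 were tested, and 1 was higher and 0 lower, with a median of 0.11. VLDLR, a lipoprotein receptor that ATF4 and hypoxia are known to induce, read 7.10, 7.08 and 6.26 in the control tumors, against 7.62, 7.96 and 8.27 in the DFX tumors, without overlap (1.14 ± 0.29 SE, limma unadjusted p = 0.00729, adjusted p = 0.514). The SD of VLDLR among the DFX tumors was 0.33, against 0.039 for TRIB3.

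The 31 genes for ER chaperones, folding enzymes and sensors of the unfolded protein response had 0 higher and 0 lower in limma, and 0 of 31 at an adjusted p under 0.05. Their median log2 fold change was 0.02, with 20 above and 11 below 0, and the values ran from -0.29 for HYOU1, an ER chaperone, to 0.33 for ATF6B, a sensor. HSPA5, which is not part of this list, was at 0.10.

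**Figure D4:**
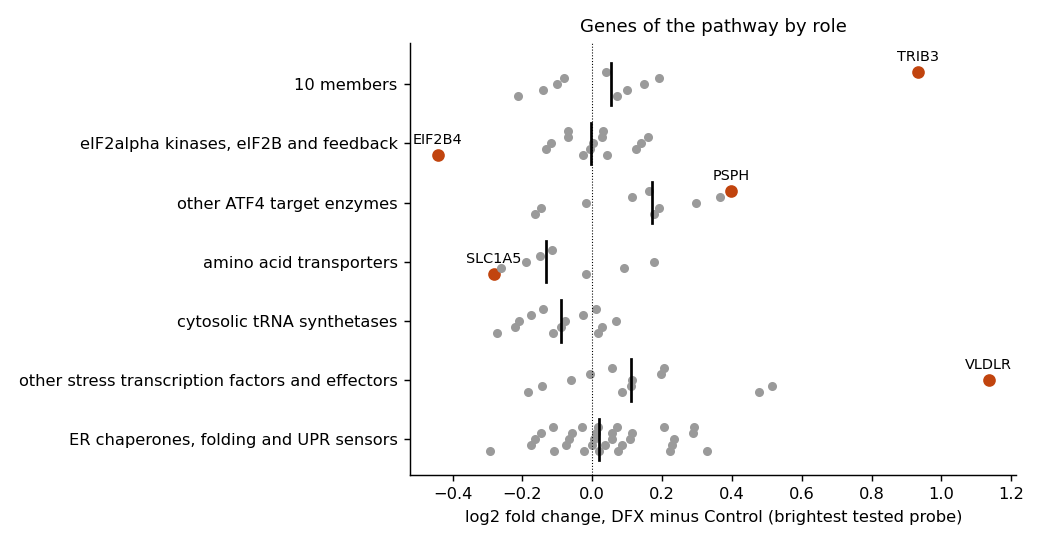
Log2 fold change (horizontal axis, DFX minus control, brightest tested probe) of each tested gene of the 10 members and of 6 pathway lists (rows), with list medians as vertical bars and genes at an unadjusted p under 0.05 in orange with their names. The list medians lie between -0.13 and 0.17, and TRIB3, PSPH and VLDLR are the named genes to the right of 0.

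Among 17793 genes outside the 10 that were well above background on all arrays, those nearest to the median profile of the 10 over the 6 tumors were BCORL1, WHSC1, TULP3, RBFA and LOC90784, at a root mean square distance of 0.021 to 0.034 log2 units. The median profile was itself nearly flat, at -0.23, 0.09 and 0.13 in control tumors 1 to 3, and -0.01, 0.07 and -0.02 in DFX tumors 1 to 3, and a flat line lay at a distance of 0.12.

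Among 8 epithelial markers, 3 were higher and 0 lower in the DFX tumors at an unadjusted p under 0.05 in limma, where 3.68% and 4.3% of all genes were. KRT8, EPCAM and KRT18 had log2 fold changes of 0.48, 0.43 and 0.27, and MUC1, CEACAM6, CDH1, KRT19 and KRT7, which did not pass, had 0.71, 0.22, 0.06, 0.02 and -0.17. Of 7 fibroblast markers tested, 1 was higher (LUM, 0.87) and 1 lower (DCN, -1.30), with a median of -0.09. COL3A1, FAP, COL1A1, COL1A2 and ACTA2, which did not pass, were at 1.04, 0.46, -0.09, -0.34 and -0.52. Of 4 endothelial markers tested, 1 was higher (PECAM1, 1.27), and VWF, KDR and CDH5, which did not pass, were at -0.58, -0.29 and -0.09. Of 5 leukocyte markers tested, 0 passed, with a median of 0.17. The part of these markers in the TRIB3 difference was not tested.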

How the data were processed

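Expression was measured in 6 tumors with Agilent 60-mer arrays. The authors deposited 1 scanner file per array, with linear-scale intensities (raw mean, background and background-subtracted processed signal), a p-value per spot against background, and flags, and a table of their normalized intensities, used as an alternative. The file headers name Feature Extraction 10.7.1.1 and the submitters' processing notes 9.5.1.1. Their methods give log2 transformation, quantile normalization and a filter at a detection p-value of 0.05 across the samples. For the in vivo work as a whole they give the Kruskal-Wallis H test, used here as an alternative; the array methods state no test of their own.

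For the present values, log2 of the processed signal was quantile-normalized over 58717 non-control spots, flagged ones included, and spots were averaged per probe. Of the 1398 flagged spot values, those of probes with an unflagged spot on the same array were left out of the average. Where every spot of a probe was flagged on an array, the value was kept. Of 50599 probes, 31807 had a background p under 0.05 on all 6 arrays and were tested, 14 of the 15 member probes among them. Control and DFX tumors, grouped by the labels, were compared with lmFit and eBayes (limma 3.58.1, R 4.3.3, prior degrees of freedom 2.04, two-sided) and Benjamini-Hochberg adjustment over all tested probes. "Called" means an unadjusted p under 0.05, the methods' threshold. A gene is given by its brightest tested probe unless stated. The exact permutation test used scipy 1.17.1. The procedure was tested on simulated data.

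The members and gene lists were chosen with earlier results of these data known. Named are all members and probes, the 4 eIF2α kinases, called genes of each list (at most 8 by size) and the 5 genes nearest to the members' median profile; genes singled out otherwise were chosen after their values were seen. Tumors count as replicates because the labels list them as separate tumors, and their number limits the precision. No pairing of tumors by replicate number was seen. Deviations from the group means correlated at 0.027, 0.027 and 0.016 for equal numbers, and at up to 0.043, 0.048 and 0.037 for other numbers. With 3 tumors per group, such values cannot show that no pairing existed. The 21 alternatives covered scaling, background correction, signal column, probe filters, flags, the authors' values, tests, array weights, blocks, the choice among probes of a gene, and leaving out each tumor. Gene names and hg19 positions are those of the array files; promoter windows came from RefSeq on GRCh38.p14.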

Additional observations from a re-analysis of the deposited data

How the results depend on the processing

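TRIB3 stayed higher at an unadjusted p under 0.05 under all 21 alternatives (log2 fold change 0.82 to 1.09, unadjusted p 0.000171 to 0.0495, adjusted p 0.254 to 0.770), as did VLDLR, and EIF2B4 stayed lower. The Kruskal-Wallis p came from a chi-square approximation, which with these group sizes gives 0.0495 whenever the groups do not overlap. Passing that test thus restates the lack of overlap, and the exact permutation test of TRIB3 gave p = 0.1. Members past an adjusted p of 0.05 numbered 0 in all 21, and the median of the members ran from -0.08 to 0.12. PSPH missed the threshold in 11 and SLC1A5 in 6 of 21.

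Array quality weights gave 2 members called, and leaving out single tumors gave 1 to 2. The second was ATF3 through a dimmer probe, lower in the DFX tumors, without control tumor 3, without DFX tumor 3 and with array weights. The pathway lists held 4 called genes, and 8 with normexp background correction, 9 with the raw mean signal, 15 with the Kruskal-Wallis H test, 7 with array weights, and 2 to 5 with 1 tumor left out (2 without any one of the DFX tumors). With the replicate number as a block, for which no pairing was seen, the lists held 2 and the members 1, and no member changed its call. Probes called over the array numbered 2674, and 4927 with the Kruskal-Wallis test, 4213 with array weights and 1889 to 2716 with 1 tumor left out.

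Signs of small differences reversed. With median scaling, ATF3 was at -0.074, DDIT4 at -0.030, HSPA5 at -0.013, EIF2AK2 at -0.0025 and EIF2AK3 at -0.030. With array weights, ATF3 was at -0.50 and DDIT4 at -0.11. ATF3 was at -0.013 with slide column as a block and at -0.095 as the mean of its probes. With 1 tumor left out, log2 fold changes, of which those of EIF2AK2, PSAT1, ATF4 and ASNS kept their sign, ran from -0.32 to 0.41 for ATF3, -0.064 to 0.44 for CHAC1, -0.27 to 0.040 for DDIT3, -0.030 to 0.19 for DDIT4, -0.020 to 0.19 for HSPA5, -0.24 to 0.027 for SESN2, -0.16 to 0.027 for EIF2AK1, 0.015 to 0.29 for EIF2AK2, 0.056 to 0.42 for PSAT1, -0.16 to -0.0036 for ATF4, -0.32 to -0.01 for ASNS and -0.066 to 0.12 for EIF2AK3. The causes were not tested. Median scaling moved the median of all probes to -0.10, from -0.02. Of the called probes 58.9% were lower, which became 71.8% under median scaling and 42.6% when arrays were scaled to their 75th percentile.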
